A study of Homo sapiens with 9 samples.

Results

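The genes described are 10 secreted inflammatory mediators: the CXC chemokines CXCL1, CXCL2, CXCL3, CXCL5 and CXCL8, the CC chemokine CCL20, and the cytokines IL1A, IL1B, IL6 and LIF. They were picked by name from a gene table of 62666 rows, and all 10 were among the 17910 genes that passed the filter on low counts. RNA sequencing had been done on 3 human mammary epithelial lines with 3 replicate libraries each, 9 in all, in a study of genome organisation along breast cancer progression. MCF10A is a spontaneously immortalised, non-tumorigenic line. MCF10AT1, derived from it, carries activated HRAS and stands for a stage before malignancy. MCF10Ca1a comes from the same lineage and gives rise to carcinomas in mice. Every line was untreated and grown in DMEM/F12 with insulin at 10 µg/mL, epidermal growth factor at 20 ng/mL, hydrocortisone at 500 ng/mL and cholera toxin at 100 ng/mL. Horse serum was at 2.5% for MCF10AT1 and at 5% for MCF10A and MCF10Ca1a, so serum and line cannot be told apart in comparisons that include MCF10AT1. Each stage is represented by 1 line. Nothing says that the replicates came from separate cultures, so p-values measure only the spread between these libraries.

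Chemokines are small secreted proteins that attract leukocytes along a gradient. CXCL1, CXCL2, CXCL3, CXCL5 and CXCL8 attract neutrophils through CXCR1 and CXCR2, and CCL20 attracts dendritic and T cells through CCR6. IL-1 alpha and IL-1 beta signal through IL1R1 to NF-kappaB, the transcription factor family that induces most of these genes in epithelium, while IL-6 and LIF signal through gp130 to STAT3. Glucocorticoids such as the hydrocortisone in the medium are known to restrain this programme.

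Library totals were 62.9 to 69.5 M estimated counts for MCF10A and MCF10AT1 and 32.9 to 35.2 M for MCF10Ca1a. All 12 mammary epithelial markers exceeded 3 counts in at least 1 library of each line, with summed levels of 3488 to 4875 TPM (a gene's length-corrected share of all transcripts) in MCF10A, 4923 to 5495 in MCF10AT1 and 5513 to 5692 in MCF10Ca1a. The defining leukocyte markers PTPRC, CD3E and TYROBP, the fibroblast markers COL1A2, COL3A1 and THY1 and the endothelial markers CDH5, VWF, ERG and CLDN5 had at most 3 counts in every library of all 3 lines. Other markers were detected: 7 of 12 leukocyte markers exceeded 3 counts in at least 1 library of each line. The same held for 5, 6 and 4 of 10 fibroblast markers and for 3, 3 and 1 of 7 endothelial markers in MCF10A, MCF10AT1 and MCF10Ca1a. Summed over 12 genes, the leukocyte list lay at 928 to 1132 TPM in MCF10A, 37.0 to 38.2 in MCF10AT1 and 116 to 121 in MCF10Ca1a. Most of that sum in MCF10A was S100A8 and S100A9, which epithelial cells also make, at means of 358 and 647 TPM. The 10 fibroblast markers summed to 92.9 to 101.7 TPM in MCF10A, 55.1 to 67.4 in MCF10AT1 and 19.3 to 26.6 in MCF10Ca1a, and the 7 endothelial markers to 0.757 to 0.988, 0.934 to 1.36 and 15.7 to 20.9. PECAM1 rose in MCF10Ca1a to a mean of 18.7 TPM.

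Between MCF10A and MCF10AT1, 3 of the 10 genes rose (CXCL3, IL6 and LIF), 6 fell (CXCL1, CXCL2, CXCL5, IL1A, IL1B and CCL20) and CXCL8 did not pass the test, which was edgeR's quasi-likelihood test at a Benjamini-Hochberg adjusted p of 0.05. Of all genes tested in that comparison, 61.6% were called, 29.8% higher and 31.8% lower. Between MCF10AT1 and MCF10Ca1a, 7 rose (CXCL3, CXCL5, CXCL8, IL1A, IL1B, CCL20 and LIF), 2 fell (CXCL1 and IL6) and CXCL2 did not pass, beside 78.4% of all genes called, 38.0% higher and 40.3% lower. Between MCF10A and MCF10Ca1a, 6 rose (CXCL3, CXCL8, IL6, IL1B, CCL20 and LIF), 3 fell (CXCL1, CXCL2 and CXCL5) and IL1A did not pass, beside 80.9% of all genes called, 39.0% higher and 41.9% lower. The number of calls, 9 of 10 each time, stands beside a high background. Fewer expressing cells and less RNA per cell cannot be told apart in these bulk libraries.

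Changes called and of at least 2-fold were found for 6 of the 10 genes between MCF10A and MCF10AT1, where 18.0% of all genes were that far apart, for 8 between MCF10AT1 and MCF10Ca1a (37.7% of all genes) and for 6 between MCF10A and MCF10Ca1a (42.9%). By direction, 3 were higher and 3 lower in the first comparison (9.36% and 8.64% of all genes), 7 higher and 1 lower in the second (18.2% and 19.5%), and 6 higher and 0 lower in the third (21.2% and 21.7%). The median log2 change of the 10 genes was -0.49, 1.76 and 1.14 in the 3 comparisons, against medians over all genes tested of -0.00, -0.04 and -0.05. These comparisons share libraries and are not independent of each other.

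**Figure D1:**
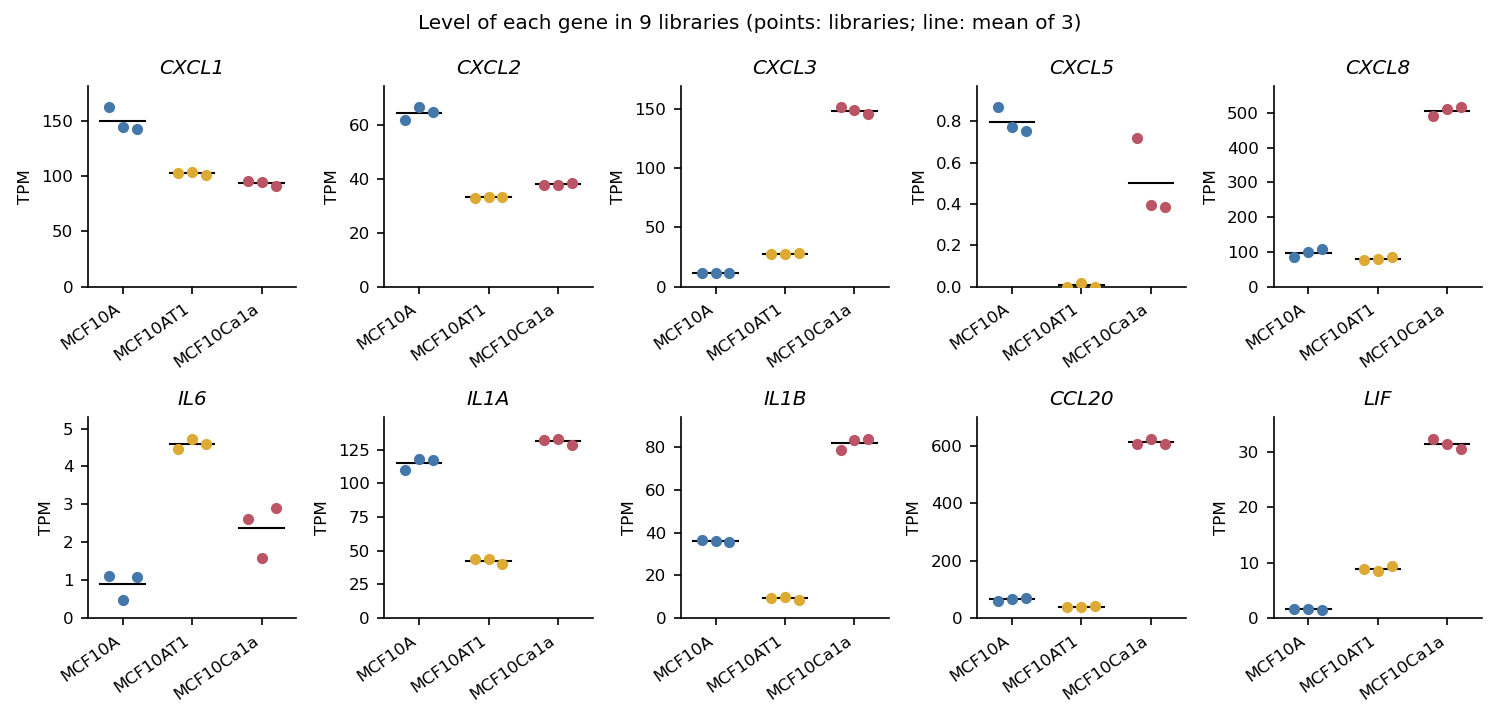
Level of each of the 10 genes in TPM (vertical axis from 0, scaled per gene) in the 3 libraries of MCF10A, MCF10AT1 and MCF10Ca1a; points are libraries and lines are means of 3. CXCL3 and LIF step up at each stage, CXCL1 steps down, IL6 peaks in MCF10AT1 and IL1A, IL1B and CXCL5 dip there.

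By edgeR's calls, the genes took 6 different courses over the 3 lines. CXCL3 and LIF rose at both steps. CXCL5, IL1A, IL1B and CCL20 fell and then rose, and CXCL8 was called at the later step alone, as a rise. IL6 rose and then fell, CXCL1 fell at both steps, and CXCL2 fell at the first and did not pass the test at the second. The number of courses depends on the scale. By limma on log2(TPM + 1), CXCL2 and CXCL8 also fell and then rose, and CXCL1 lost its second call (adjusted p = 0.0538). Among all genes tested, 10.8% rose at both steps, 12.7% fell and then rose, 13.8% rose and then fell, 13.0% fell at both, 14.5% rose at the later step alone, and 6.04% fell at the first and did not pass at the second.

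**Figure D2:**
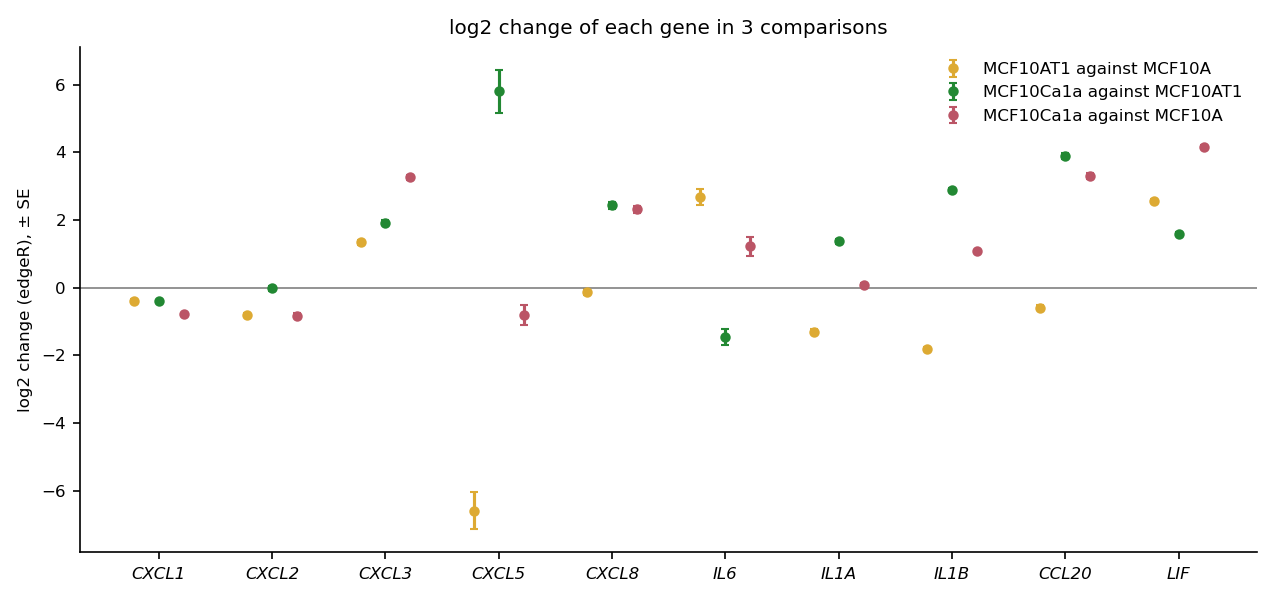
log2 change of each gene (vertical axis, edgeR estimate ± SE) in the 3 comparisons, 3 libraries per line. CXCL3, CXCL8, CCL20 and LIF lie between 2.31 and 4.15 in MCF10Ca1a against MCF10A, while CXCL1 and CXCL2 lie near -0.8; the fitted values of CXCL5 that involve MCF10AT1 rest on 1 count there and depend on the prior count of the fit.

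CXCL1, CXCL2 and CXCL3 are recent duplicates, named GRO alpha, beta and gamma, and sit with CXCL5 and CXCL8 on chromosome 4. CXCL8 (chr4:73740506-73743716, plus strand), CXCL1 (chr4:73869393-73871242, plus), CXCL5 (chr4:73995642-73998779, minus), CXCL3 (chr4:74036589-74038807, minus) and CXCL2 (chr4:74097035-74099293, minus) span 358.8 kb of GRCh38, by GENCODE 29. The coding sequences of the trio are each 321 bases long. CXCL1 and CXCL2 are identical at 93.5% of bases, CXCL1 and CXCL3 at 90.7%, and CXCL2 and CXCL3 at 94.4%. Their transcripts share exact runs of up to 97 bases, so short reads can be split among them, and single-gene values for the trio are uncertain to that extent. A stretch of 120 coding bases, from coding base 103 to 222 counted from 1 at the start codon, is shown to make this similarity visible, with the 8 positions at which the 3 genes are not all alike in capitals (GENCODE 29, GRCh38).
CXCL1: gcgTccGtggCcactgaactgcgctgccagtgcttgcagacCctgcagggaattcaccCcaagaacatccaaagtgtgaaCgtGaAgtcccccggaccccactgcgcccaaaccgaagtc
CXCL2: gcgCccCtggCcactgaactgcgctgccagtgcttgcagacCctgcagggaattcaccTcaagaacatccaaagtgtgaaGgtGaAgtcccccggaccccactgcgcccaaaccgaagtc
CXCL3: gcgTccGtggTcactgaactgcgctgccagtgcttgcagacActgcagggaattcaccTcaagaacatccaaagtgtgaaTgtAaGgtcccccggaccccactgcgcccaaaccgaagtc

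Despite this similarity the trio did not move together. CXCL3 was at 11.1, 11.04 and 11.8 TPM in MCF10A, at 27.9, 27.3 and 28.1 in MCF10AT1 and at 151, 149 and 146 in MCF10Ca1a. The 3 lines did not overlap, and the spread within a line was small beside the steps between them. CXCL3 was 2.54-fold higher in MCF10AT1 than in MCF10A (log2 change 1.34 ± 0.07 SE, adjusted p = 2.19e-09), higher again in MCF10Ca1a than in MCF10AT1 (1.93 ± 0.07, adjusted p = 7.75e-12) and 9.62-fold higher in MCF10Ca1a than in MCF10A (3.27 ± 0.07, adjusted p = 7.61e-14). With only the counts of transcripts annotated as protein-coding, an alternative chosen after the data were seen, the last value was 4.01 ± 0.06.

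CXCL1, the most abundant of the 10 genes in MCF10A, was at 162, 144 and 143 TPM there, at 103, 104 and 101 in MCF10AT1 and at 95.8, 94.2 and 91.2 in MCF10Ca1a. Every MCF10A library was above every library of the other lines. It fell by 0.38 ± 0.05 on the log2 scale to MCF10AT1 (adjusted p = 7.34e-06) and by 0.79 ± 0.05 to MCF10Ca1a (adjusted p = 1.73e-09). The fall from MCF10AT1 to MCF10Ca1a was 0.41 ± 0.05 in counts (adjusted p = 2.49e-06), but was 0.13 with an adjusted p of 0.0538 by limma on log2(TPM + 1). The TPM scale placed the median of all genes 0.13 higher in MCF10Ca1a against MCF10AT1, and the count scale placed it at -0.04.

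CXCL2 was at 61.7, 66.3 and 64.5 TPM in MCF10A, at 32.7, 33.2 and 33.3 in MCF10AT1 and at 37.8, 37.7 and 38.3 in MCF10Ca1a. MCF10A stood apart from both other lines. CXCL2 fell by 0.80 ± 0.06 (log2, adjusted p = 7.94e-08) to MCF10AT1 and by 0.82 ± 0.06 to MCF10Ca1a (adjusted p = 3.12e-08). Between MCF10AT1 and MCF10Ca1a the log2 change was -0.02 ± 0.07 (adjusted p = 0.771), and it became 0.19, with an adjusted p of 0.00334, by limma on log2(TPM + 1).

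**Figure D3:**
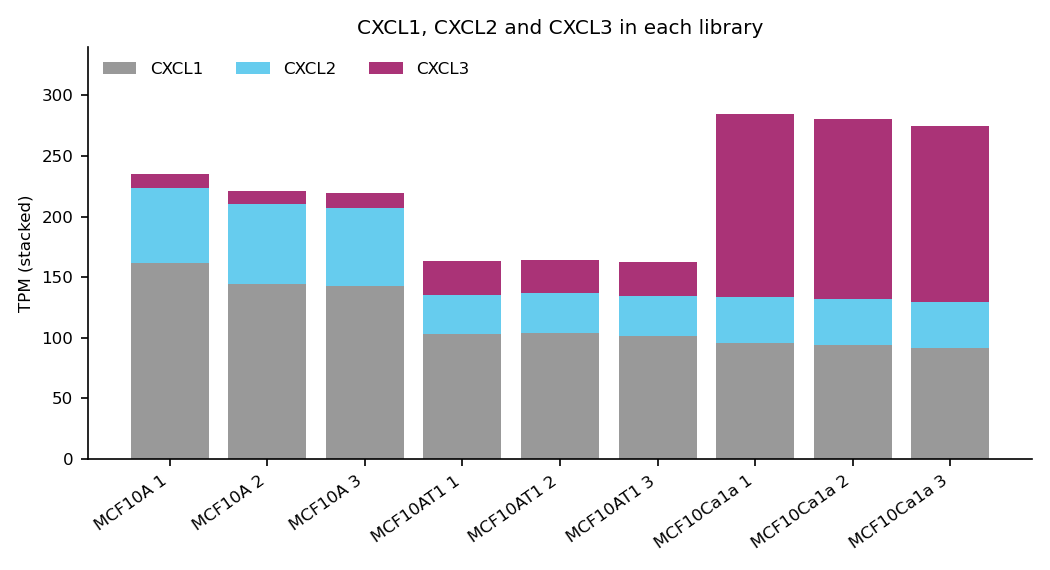
Levels of CXCL1, CXCL2 and CXCL3 stacked in each of the 9 libraries, in TPM from 0. The summed height is lowest in MCF10AT1 and highest in MCF10Ca1a, and CXCL3 grows from 5.02% of the stack in MCF10A to 53.0% in MCF10Ca1a.

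The summed counts of the trio do not depend on how reads were split among its members, whereas the summed TPM can, through transcript lengths. The TPM sum was 225 ± 8.45 TPM in MCF10A, 163 ± 0.709 in MCF10AT1 and 280 ± 4.98 in MCF10Ca1a (SD, n = 3). With the 3 rows replaced by their sum in the edgeR fit, the log2 change was -0.28 ± 0.05 for MCF10AT1 against MCF10A (adjusted p = 1.75e-04), 0.43 ± 0.05 for MCF10Ca1a against MCF10AT1 (adjusted p = 1.47e-06) and 0.15 ± 0.05 for MCF10Ca1a against MCF10A (adjusted p = 0.00915). The last call was lost without the filter on low counts (0.08, adjusted p = 0.343) and without MCF10A replicate 2 (0.12, adjusted p = 0.0747). By limma on log2(TPM + 1) the 3 changes of the sum were larger, at -0.46, 0.78 and 0.32 (adjusted p = 1.07e-05, 7.96e-08 and 5.54e-05). CXCL3 made up 5.02 ± 0.322% of the trio's TPM in MCF10A, 17.0 ± 0.333% in MCF10AT1 and 53.0 ± 0.107% in MCF10Ca1a. CXCL1 made up 66.4 ± 2.24%, 62.8 ± 0.450% and 33.4 ± 0.247%.

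The promoters of the CXC genes are shown because their members share a motif and yet differ in course. RefSeq promoter sequences (GRCh38.p14) were matched for 9 of the 10 genes, all but LIF. In the 250 bases before the start site, the letters GGAATTTCC occurred on either strand in all 5 CXC genes and in no other member. They occurred in 145 of 35116 promoters of that length (0.413%), and the motif was chosen after the sequences were seen. It begins 78, 77, 78, 90 and 91 bases before the start in CXCL1, CXCL2, CXCL3, CXCL5 and CXCL8. The 69 bases around it are given on the gene's strand with the motif in capitals, at chr4:73869285-73869353 (plus), chr4:74099234-74099302 (minus), chr4:74038729-74038797 (minus), chr4:73998729-73998797 (minus) and chr4:73740448-73740516 (plus) in the same order.
CXCL1: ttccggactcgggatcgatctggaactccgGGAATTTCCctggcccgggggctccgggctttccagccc
CXCL2: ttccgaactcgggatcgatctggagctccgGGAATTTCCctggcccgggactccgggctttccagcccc
CXCL3: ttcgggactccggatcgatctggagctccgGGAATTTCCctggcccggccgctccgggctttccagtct
CXCL5: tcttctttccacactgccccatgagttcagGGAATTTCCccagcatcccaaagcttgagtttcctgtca
CXCL8: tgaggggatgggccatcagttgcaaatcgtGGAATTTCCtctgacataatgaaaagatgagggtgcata

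Over all 250 bases, the promoters of CXCL1 and CXCL3, whose RNAs moved in opposite directions, were identical at 81.4% of positions, those of CXCL2 and CXCL3 at 73.3% and those of CXCL1 and CXCL2 at 70.4%. The kappaB consensus, which overlaps the printed motif in CXCL1, CXCL2, CXCL3 and CXCL5, was also found in IL6 and CCL20, in 6 of the 9 genes, and in 9.96% of all promoters. The AP-1 motif TGANTCA was found in CXCL8 and IL1A (6.57% of all promoters). The C/EBP motif TTNNGNAAT was found in IL6, IL1A and IL1B (9.85%), and the STAT motif TTCNNNGAA in CXCL5 and IL1B (6.57%). These matches are letters in a window, searched on both strands, and were not tested as binding sites.

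CXCL8, encoding interleukin-8, differed little between the first lines and was high in the last. It was at 86.1, 99.7 and 108 TPM in MCF10A, at 75.5, 78.5 and 86.0 in MCF10AT1 and at 493, 511 and 516 in MCF10Ca1a. MCF10AT1 lay just under MCF10A without overlap on this scale, and MCF10Ca1a far above both. The log2 change between MCF10A and MCF10AT1 was -0.13 ± 0.10 (adjusted p = 0.277), and it passed the test without MCF10A replicate 1 (-0.25, adjusted p = 0.0100) and by limma on log2(TPM + 1) (-0.29, adjusted p = 0.0130). CXCL8 was 5.43-fold higher in MCF10Ca1a than in MCF10AT1 (adjusted p = 5.39e-11) and 4.96-fold higher than in MCF10A (log2 change 2.31 ± 0.10, adjusted p = 6.09e-11).

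CXCL5, an epithelial neutrophil attractant, was measured with few counts. The libraries of MCF10A held 47, 45 and 50 counts, those of MCF10AT1 held 0, 1 and 0, and those of MCF10Ca1a held 21, 11 and 11. MCF10A and MCF10Ca1a both stood clear of MCF10AT1. By summed counts scaled for depth, CXCL5 was 139-fold lower in MCF10AT1 than in MCF10A (95% exact interval 24.6 to 5545, counting error only) and 80.0-fold higher in MCF10Ca1a than in MCF10AT1 (13.6 to 3230). The adjusted p-values were 1.75e-07 and 1.25e-06. The difference between MCF10Ca1a and MCF10A (log2 change -0.80 ± 0.30, adjusted p = 0.0245) was no longer called without MCF10A replicate 3 (-0.81, adjusted p = 0.0520), MCF10Ca1a replicate 2 (-0.67, adjusted p = 0.0926) or MCF10Ca1a replicate 3 (-0.64, adjusted p = 0.101).

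CCL20, the ligand of CCR6, had the highest level of the 10 genes in MCF10Ca1a. In MCF10A and MCF10AT1 it stood behind 3 of the others by whole-gene TPM, and behind 5 by the TPM of protein-coding transcripts. It was at 59.4, 65.4 and 70.7 TPM in MCF10A, at 39.4, 37.7 and 42.9 in MCF10AT1 and at 607, 625 and 606 in MCF10Ca1a. No line overlapped another. CCL20 fell by 0.59 ± 0.09 (log2, adjusted p = 4.25e-05) to MCF10AT1. It was 14.7-fold higher in MCF10Ca1a than in MCF10AT1 (adjusted p = 1.80e-13) and 9.79-fold higher than in MCF10A (log2 change 3.29 ± 0.08, adjusted p = 2.53e-13).

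In the earlier lines, most of the CCL20 signal was assigned to a transcript that does not encode the protein. CCL20-203 has 3 exons where the coding transcript CCL20-201 has 4, and its first exon begins 85 bases upstream of exon 2 of CCL20-201, inside the intron before it. These 85 bases are printed in lower case because they are the only part that sets the start of CCL20-203 apart, and the 30 capitals that follow are the beginning of the shared exon (chr2:227815369-227815483, plus strand, GRCh38).
CCL20-203: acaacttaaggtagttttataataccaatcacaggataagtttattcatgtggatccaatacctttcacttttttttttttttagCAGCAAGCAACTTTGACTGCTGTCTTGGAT

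The estimated counts of CCL20-203 were 475, 652 and 844 for MCF10A, 443, 411 and 510 for MCF10AT1, and only 19.7, 10.9 and 22.8 for MCF10Ca1a, the line with the most CCL20. Transcripts annotated as not protein-coding made up 68.6 ± 7.10% of CCL20 TPM in MCF10A, 72.5 ± 4.62% in MCF10AT1 and 0.743 ± 0.218% in MCF10Ca1a (SD, n = 3). Coding CCL20 TPM was 23.2, 19.7 and 17.8 in the libraries of MCF10A, 11.5, 11.7 and 9.56 in those of MCF10AT1, and 601, 621 and 603 in those of MCF10Ca1a. With coding counts only, the edgeR log2 change of CCL20 in MCF10Ca1a was 4.81 ± 0.07 against MCF10A and 5.56 ± 0.08 against MCF10AT1, up from 3.29 and 3.88 for the whole gene. Salmon, the tool named in the submitters' notes, apportions reads between overlapping transcripts by a model, and the uncertainty of that step was not used here. Whether the counts given to CCL20-203 come from a separate transcript or from unspliced or truncated RNA of the coding gene was not tested, and the coding-only changes depend on that assignment.

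The share was also lower in MCF10Ca1a for CXCL1, CXCL2, CXCL3 and CXCL8, while CXCL5, with 1 listed transcript, which is coding, had none. Of CXCL3 TPM, 30.2 ± 1.99% lay on transcripts that are not protein-coding in MCF10A, 22.2 ± 2.06% in MCF10AT1 and 5.94 ± 0.588% in MCF10Ca1a. For CXCL2 the shares were 11.1 ± 2.10%, 11.1 ± 1.20% and 3.49 ± 0.832%, and for CXCL8 3.35 ± 1.39%, 3.36 ± 0.414% and 0.285 ± 0.0471%. For IL1B they were 5.38 ± 0.321%, 2.40 ± 1.86% and 1.01 ± 0.461%, with overlap between MCF10AT1 and MCF10Ca1a, and for IL6, with few counts, 8.62 ± 7.24%, 8.44 ± 0.819% and 9.50 ± 13.3%. The share over all protein-coding genes went the other way, from 11.4 ± 0.257% and 11.2 ± 0.123% to 12.6 ± 0.195%. These shares were chosen for description after they were seen and carry no test. Of 40 transcripts of the 10 genes in the deposited table, 38 were matched to GENCODE 29.

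**Figure D4:**
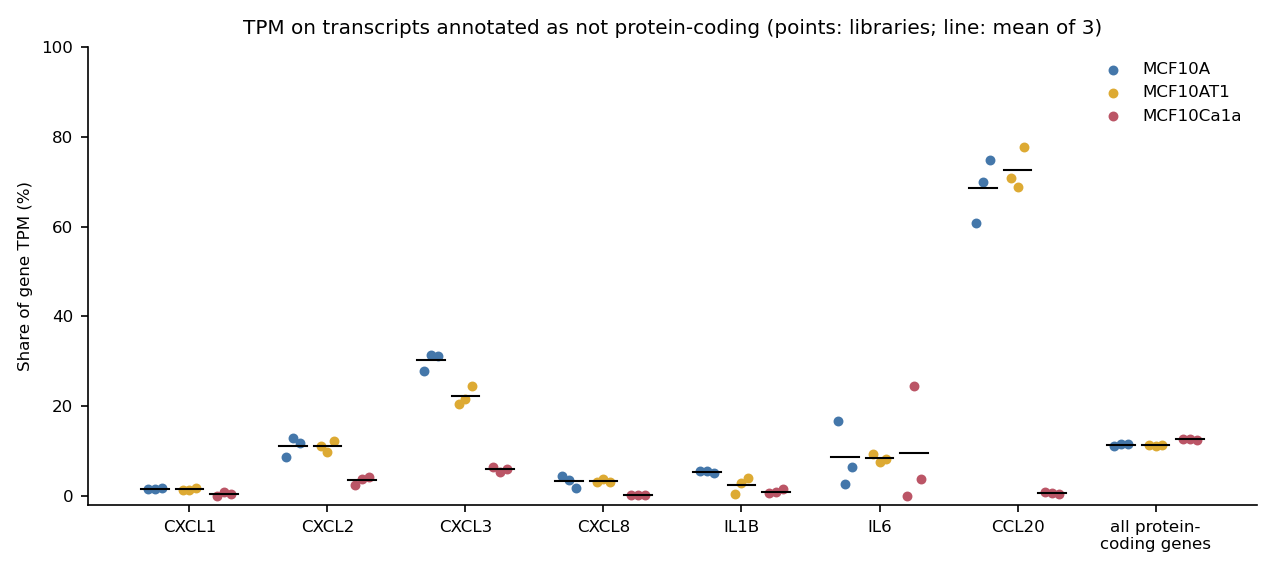
Share of a gene's TPM on transcripts annotated as not protein-coding (percent) in each library; points are libraries and lines are means of 3. For CCL20 the share is 60.9% to 77.7% in MCF10A and MCF10AT1 and under 1% in MCF10Ca1a, while over all protein-coding genes it stays between 11.1% and 12.8%; for IL6 it runs from 0% to 24.6% among the MCF10Ca1a libraries.

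IL1A and IL1B encode the alarmin IL-1 alpha and the secreted IL-1 beta, and lie side by side on chromosome 2 (chr2:112773915-112784590 and chr2:112829751-112836903, both minus, GRCh38). IL1B was at 36.5, 36.3 and 35.5 TPM in MCF10A, at 9.43, 9.67 and 8.62 in MCF10AT1 and at 78.7, 83.2 and 83.8 in MCF10Ca1a. The 3 lines were well separated, with MCF10AT1 lowest. IL1B was 3.54-fold lower in MCF10AT1 than in MCF10A (log2 change -1.82 ± 0.06, adjusted p = 1.18e-11), 7.43-fold higher in MCF10Ca1a than in MCF10AT1 (adjusted p = 9.48e-14) and 2.10-fold higher than in MCF10A (adjusted p = 2.65e-10).

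IL1A was lowest in the same line, and MCF10Ca1a lay close above MCF10A on the TPM scale. It was at 110, 119 and 117 TPM in MCF10A, at 43.5, 44.1 and 40.2 in MCF10AT1 and at 132, 133 and 129 in MCF10Ca1a. It was 2.46-fold lower in MCF10AT1 than in MCF10A (log2 change -1.30 ± 0.06, adjusted p = 8.17e-10) and 2.58-fold higher in MCF10Ca1a than in MCF10AT1 (adjusted p = 1.70e-10). In MCF10Ca1a against MCF10A the log2 change was 0.07 ± 0.06 (adjusted p = 0.330), and it passed the test as 0.19 by limma on log2(TPM + 1) (adjusted p = 0.00718). The ratio of IL1A to IL1B TPM was 3.20 ± 0.159 in MCF10A, 4.61 ± 0.0557 in MCF10AT1 and 1.61 ± 0.0733 in MCF10Ca1a.

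The natural antagonist of IL-1, IL1RN, moved against its agonists. It had means of 0.994, 3.72 and 0.400 TPM in MCF10A, MCF10AT1 and MCF10Ca1a, a rise (log2 change 2.03, adjusted p = 2.71e-08) and a later fall below the first level (-1.38 against MCF10A, adjusted p = 2.04e-05). Set against IL1B, IL1RN amounted to 2.75 ± 0.587% of its TPM in MCF10A, 40.3 ± 1.54% in MCF10AT1 and 0.490 ± 0.0979% in MCF10Ca1a. Of the 5 other genes of this family list that were tested, counting IL1RN, 3 rose and 0 fell in MCF10AT1 against MCF10A, and 4 rose and 1 fell in MCF10Ca1a against MCF10A (median log2 changes 0.81 and 1.15). Those counts stand beside 29.8% higher and 31.8% lower among all genes tested in the first comparison, and 39.0% and 41.9% in the second. The largest rise on the list was that of the alarmin IL33, from a mean of 0.402 TPM to 3.65 and 41.8 (log2 change 6.66 against MCF10A, adjusted p = 4.36e-15). IL18 was the most abundant, at means of 211, 340 and 531 TPM.

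IL6 and LIF share the gp130 receptor chain but took different courses. LIF, which also maintains stem cells in culture, was at 1.68, 1.65 and 1.52 TPM in MCF10A, at 8.84, 8.46 and 9.37 in MCF10AT1 and at 32.3, 31.5 and 30.4 in MCF10Ca1a. Each line lay wholly above the one before. LIF was 5.87-fold higher in MCF10AT1 than in MCF10A (log2 change 2.55 ± 0.06, adjusted p = 7.35e-13), 3.03-fold higher again in MCF10Ca1a (adjusted p = 6.77e-12) and 17.8-fold higher in MCF10Ca1a than in MCF10A (4.15 ± 0.06, adjusted p = 3.34e-15). Of all genes tested, 3.36% had a larger rise in that comparison.

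IL6 (chr7:22725884-22732002, plus; LIF is at chr22:30240447-30246851, minus) was a low gene that peaked in MCF10AT1. It was at 1.11, 0.481 and 1.08 TPM in MCF10A, at 4.47, 4.73 and 4.60 in MCF10AT1 and at 2.63, 1.59 and 2.90 in MCF10Ca1a. The lines did not overlap, but replicate 2 was the lowest in both MCF10A and MCF10Ca1a. IL6 was 6.41-fold higher in MCF10AT1 than in MCF10A (log2 change 2.68 ± 0.25, adjusted p = 4.81e-07), 2.76-fold lower in MCF10Ca1a than in MCF10AT1 (adjusted p = 6.68e-05) and 2.32-fold higher in MCF10Ca1a than in MCF10A (1.22 ± 0.28, adjusted p = 0.00119). With coding counts only, these 3 log2 changes of IL6 were 2.61, -1.18 and 1.44, against 2.68, -1.46 and 1.22 for the whole gene. The retained-intron transcript IL6-208 had 71.3, 52.7 and 63.0 estimated counts in MCF10AT1 and 0, 1.4 and 1.3 in MCF10Ca1a. The size of the later fall thus depends on how counts were assigned to transcripts. The ratio of LIF to IL6 TPM was 2.11 ± 1.14, 1.94 ± 0.129 and 14.2 ± 4.96. Among 6 other IL-6 family genes tested, 0 rose and 4 fell in MCF10AT1 against MCF10A, and 2 rose and 3 fell in MCF10Ca1a against MCF10A (medians -0.95 and -1.01). Beside them, 29.8% of all genes tested rose and 31.8% fell in the first comparison, and 39.0% and 41.9% in the second. IL11 rose from 0.672 to 5.52 TPM (log2 change 2.57, adjusted p = 4.95e-10) between MCF10A and MCF10Ca1a.

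The order of the 10 genes by whole-gene TPM, which is corrected for transcript length, changed with the line. In MCF10A it ran CXCL1, IL1A, CXCL8, CCL20, CXCL2, IL1B, CXCL3, LIF, IL6 and CXCL5, and the neighbours CCL20 and CXCL2, and IL6 and CXCL5, overlapped in their replicate ranges. In MCF10AT1 it ran CXCL1, CXCL8, IL1A, CCL20, CXCL2, CXCL3, IL1B, LIF, IL6 and CXCL5, with overlap between IL1A and CCL20 and between IL1B and LIF. In MCF10Ca1a it ran CCL20, CXCL8, CXCL3, IL1A, CXCL1, IL1B, CXCL2, LIF, IL6 and CXCL5 with no overlap between neighbours. The summed TPM of the 10 genes was 543 ± 12.1 in MCF10A, 349 ± 5.19 in MCF10AT1 and 1647 ± 17.5 in MCF10Ca1a (SD, n = 3). CCL20 and CXCL8 together grew into most of it: CCL20 was 11.99 ± 0.780%, 11.5 ± 0.633% and 37.2 ± 0.318% of the sum, and CXCL8 18.04 ± 1.68%, 22.9 ± 1.20% and 30.8 ± 0.613%.

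Most of the 10 messages were rich in a decay motif. The pentamer ATTTA, the core of AU-rich elements that mark cytokine RNAs for rapid decay, occurred 2.18 (LIF) to 14.0 (IL6) times per kb of 3′ untranslated region, against a median of 1.70 over 16928 genes with such a region of at least 200 bases. The 10 genes were measured on the transcript with the highest mean TPM. The 16928 genes were measured on their longest such region among coding transcripts, so the 2 choices differ. For 9 of the 10 genes the density exceeded that of at least 87.9% of these genes, and for LIF that of 59.1%. CXCL2 had 13.8, CXCL3 10.4 and CXCL1 7.05 per kb.

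Receptors for the chemokines were at or near the detection limit. CCR6, which binds CCL20, had 1 count in all 9 libraries together and CXCR2 at most 6 counts per library, and neither passed the filter. CXCR1 was at 0.144 to 0.223 TPM in MCF10A, 0.178 to 0.194 in MCF10AT1 and 0.0326 to 0.179 in MCF10Ca1a, with a log2 change of -1.15 against MCF10AT1 (adjusted p = 0.0204) and of -0.95 against MCF10A (adjusted p = 0.0518). ACKR1, a decoy that binds many CXC chemokines, fell from 14, 13 and 14 counts per library in MCF10A to 8, 1 and 6 in MCF10AT1 (log2 change -1.40, adjusted p = 0.0316). No MCF10Ca1a library held a count of ACKR1, so it was at least 7.22-fold lower there than in MCF10A against a floor of 3 counts over the group.

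The chains for IL-1 and IL-6 were present. IL1R1, the signalling IL-1 receptor, was at 5.21 to 7.05 TPM in MCF10A, 4.57 to 5.02 in MCF10AT1 and 2.40 to 2.84 in MCF10Ca1a, a fall by 1.29 on the log2 scale (adjusted p = 3.53e-09). The decoy IL1R2 rose to MCF10AT1 (log2 change 1.91, adjusted p = 6.41e-06) and stayed above MCF10A in MCF10Ca1a (1.22, adjusted p = 4.91e-04). The accessory chain IL1RAP was at 26.6 to 42.8 TPM over the 9 libraries, with log2 changes of -0.15 in MCF10AT1 against MCF10A (adjusted p = 0.0453) and -0.03 in MCF10Ca1a against MCF10A (adjusted p = 0.682). IL6R fell by 1.35 (adjusted p = 2.28e-09) and IL6ST, which encodes gp130, by 0.90 (adjusted p = 2.10e-09) to MCF10AT1, the line with the most IL6. Against MCF10A they were lower by smaller amounts in MCF10Ca1a, with log2 changes of -0.49 (adjusted p = 2.83e-05) and -0.18 (adjusted p = 0.00335). LIFR was at 1.87 to 3.21 TPM and rose in MCF10Ca1a (0.36 against MCF10A, adjusted p = 9.36e-04). Of the 8 receptors tested, 1 rose and 4 fell in MCF10AT1 and 2 rose and 4 fell in MCF10Ca1a, each against MCF10A (median log2 changes -0.13 and -0.33). Among all genes tested, 29.8% rose and 31.8% fell in MCF10AT1, and 39.0% and 41.9% did so in MCF10Ca1a.

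**Figure D5:**
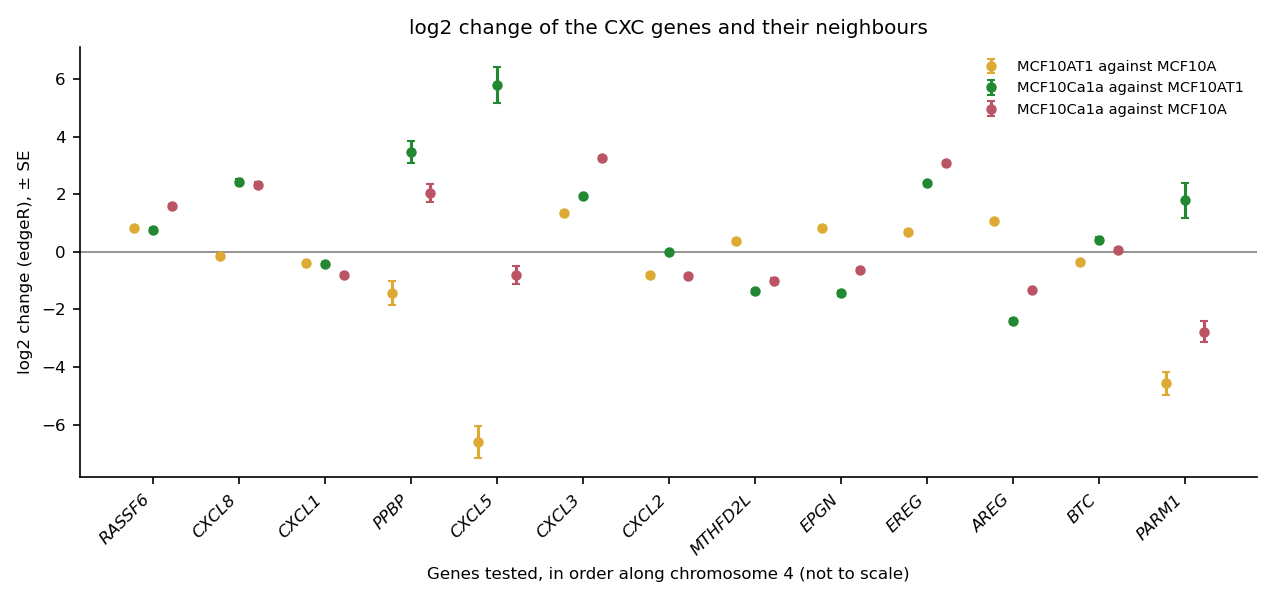
log2 change (edgeR estimate ± SE, 3 libraries per line) of 13 genes tested on chromosome 4, in their order along the chromosome but not to scale, in the 3 comparisons. Neighbours could differ in direction: CXCL3 and EREG rise by 3.27 and 3.08 in MCF10Ca1a against MCF10A, and CXCL2 and AREG, their neighbours, lie at -0.82 and -1.34; fitted values of CXCL5 and PARM1 rest on few counts.

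Along chromosome 4 some neighbours changed in opposite directions and others in the same one. CXCL3 and CXCL2, 58.2 kb apart and on the same strand, had log2 changes of 3.27 and -0.82 in MCF10Ca1a against MCF10A. The epidermal growth factor family ligands beyond them were divided too: EREG was at 21.3 to 23.1 TPM in MCF10A and 186 to 208 in MCF10Ca1a (log2 change 3.08, adjusted p = 2.11e-14), while AREG was at 1194 to 1249 and 521 to 537 (-1.34, adjusted p = 4.58e-11) and EPGN at 133 to 157 and 109 to 111 (-0.62, adjusted p = 3.94e-06). BTC had a log2 change of 0.05 (adjusted p = 0.574). RASSF6, on the other side, rose (1.58, adjusted p = 4.10e-11), and MTHFD2L fell (-0.997, adjusted p = 2.03e-07). PARM1 was at 32 to 40 counts in MCF10A and at most 3 in any library of the other lines. AFP and AFM did not pass the filter. In MCF10AT1 against MCF10A, 5 of the 8 other genes tested in the interval rose and 3 fell (PPBP, BTC and PARM1), AREG most among the rises (1.06, adjusted p = 2.01e-09). Of all genes tested in that comparison, 29.8% rose and 31.8% fell. PPBP, a platelet chemokine gene between CXCL1 and CXCL5, fell by 1.42 to MCF10AT1 (adjusted p = 0.00924) and rose above its MCF10A level in MCF10Ca1a (log2 change 2.05, adjusted p = 4.41e-05).

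Of 23 other chemokines, 8 passed the filter: 1 rose and 4 fell in MCF10AT1, and 6 rose and 2 fell in MCF10Ca1a, each against MCF10A (median log2 changes -0.59 and 1.69). For these and the cytokines below, the background of all genes was 29.8% higher and 31.8% lower in MCF10AT1. In MCF10Ca1a the background was 39.0% higher and 41.9% lower. CCL22 had 0 counts in all 6 libraries of MCF10A and MCF10AT1, while MCF10Ca1a had 43, 47 and 34, which is at least 78.3-fold higher than MCF10A against a floor of 3 counts over the group. CXCL17 rose (log2 change 1.47 to MCF10AT1, adjusted p = 0.00568), and CXCL14 fell from a mean of 0.863 TPM to 0.246 and 0.0835 (-3.45 in MCF10Ca1a, adjusted p = 4.43e-06). Of 14 other cytokines and colony-stimulating factors tested, 4 rose and 9 fell in MCF10AT1, and 7 rose and 4 fell in MCF10Ca1a (medians -1.50 and 0.51). CSF3, which drives neutrophil production, was at means of 149, 0.291 and 11.6 TPM, a fall by 8.78 on the log2 scale to MCF10AT1 (adjusted p = 1.15e-15), and its log2 change in MCF10Ca1a against MCF10A was -3.83 (adjusted p = 6.36e-15). IL20 had 3 counts in all MCF10A libraries, 28 in MCF10AT1 and 92 in MCF10Ca1a, the last 58.1-fold higher than the first (95% exact interval 19.3 to 287).

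The genes that carry the signal were counted list by list, each against MCF10A, with median log2 changes to be set beside the all-gene medians of -0.00 and -0.05. Counts in all of these lists stand beside 29.8% of all genes higher and 31.8% lower in MCF10AT1. In MCF10Ca1a the shares of all genes were 39.0% higher and 41.9% lower. Of 11 NF-kappaB subunits and kinases, 1 rose and 9 fell in MCF10AT1, and 5 rose and 5 fell in MCF10Ca1a (medians -0.29 and 0.08). MAP3K14, the kinase of the non-canonical pathway, rose most in MCF10Ca1a (log2 change 1.86, adjusted p = 4.32e-13) and IKBKE fell most (-3.04, adjusted p = 2.34e-12). IKBKE also fell most in MCF10AT1 (-2.45, adjusted p = 2.65e-11), where CHUK was the gene that rose (0.15, adjusted p = 0.0175), although its mean TPM went from 26.5 to 26.2. Of 16 NF-kappaB-induced inhibitors and survival genes, 4 rose and 8 fell in MCF10AT1 and 11 rose and 4 fell in MCF10Ca1a (medians -0.14 and 0.47). TRAF1 rose most in both lines (0.59 and 3.37, adjusted p = 0.00961 and 1.14e-10). ICAM1, an adhesion molecule for leukocytes, went the other way, with 1513 to 1743 counts in MCF10A, 1 in each MCF10AT1 library and 5 to 7 in MCF10Ca1a (adjusted p = 4.42e-14 and 7.72e-14).

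Of 16 genes of IL-1 and Toll-like receptor signalling, 4 rose and 8 fell in MCF10AT1, and 6 rose and 5 fell in MCF10Ca1a (medians -0.16 and 0.02). TLR4, the lipopolysaccharide receptor, rose most in MCF10AT1, from a mean of 0.0668 to 10.9 TPM (log2 change 6.92, adjusted p = 5.48e-15). TLR2 fell most there, from 73 summed counts to 1, a ratio of 71.7 (95% exact interval 12.5 to 2869). In MCF10Ca1a, IRAK3, an inhibitor of this pathway, rose from 3 summed counts to 92, a ratio of 58.1 (19.3 to 287), and TLR3 fell by 2.35 (adjusted p = 7.17e-11). Of 12 JAK, STAT and SOCS genes, 5 rose and 6 fell in MCF10AT1 and 6 rose and 3 fell in MCF10Ca1a (medians -0.20 and 0.20). SOCS3, the feedback inhibitor induced by STAT3, rose in both lines, from 1.17 to 3.72 and 18.2 TPM (1.84 and 3.84, adjusted p = 5.22e-10 and 6.45e-14). STAT5A fell most in MCF10AT1 (-0.98, adjusted p = 1.59e-05) and SOCS2 in MCF10Ca1a (-1.05, adjusted p = 6.50e-10).

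Of 12 AU-rich element and cytokine decay factors, 3 rose and 4 fell in MCF10AT1 and 5 rose and 6 fell in MCF10Ca1a (medians 0.01 and 0.00). ZFP36, which encodes tristetraprolin, rose most in both (0.99 and 1.30, adjusted p = 6.20e-10 and 9.68e-12). RC3H1 fell most in MCF10AT1 (-0.72, adjusted p = 7.31e-08) and HNRNPD in MCF10Ca1a (-1.52, adjusted p = 2.99e-10). Of 12 C/EBP and AP-1 factors, 8 rose and 0 fell in MCF10AT1 and 7 rose and 5 fell in MCF10Ca1a (medians 0.44 and 0.40). ATF3 rose most, from 1.99 to 11.2 and 66.2 TPM (2.64 and 4.93, adjusted p = 1.50e-12 and 1.53e-15), and CEBPA fell most in MCF10Ca1a (-2.09, adjusted p = 2.39e-07). Of 10 glucocorticoid receptor and target genes, 6 rose and 2 fell in MCF10AT1 and 5 rose and 4 fell in MCF10Ca1a (medians 0.23 and 0.37). TSC22D3 rose most in MCF10AT1 (1.58, adjusted p = 3.56e-11) and DUSP1 fell most (-0.87, adjusted p = 8.97e-09). HSD11B2, which inactivates cortisol, rose most in MCF10Ca1a (2.50, adjusted p = 2.04e-11), and ZBTB16 fell most (-4.26, adjusted p = 5.09e-13).

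The genes whose course over the 9 libraries was nearest to each of the 10 were ranked by the root mean square (RMS) difference of centred log2 CPM (counts scaled to library size). For CXCL1 they were MPHOSPH9, MYO19 and HNRNPH1 (RMS 0.0403 to 0.0488), and 2234 of 12737 genes lay within 0.25. For CXCL2 they were CD46, TOMM20 and GNPAT (0.0541 to 0.0767). CXCL3 was nearest to AMN1, ARRDC4 and FOXA1 (0.0726 to 0.110), with 32 genes within 0.25. CXCL8 was nearest to USF3, UBR4 and PORCN (0.128 to 0.156) and CCL20 to OSGIN1, TGM2 and STMN3 (0.177 to 0.211), with 7 genes within 0.25.

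IL1A was nearest to CCDC159, PRR14L and ACTRT3 (RMS 0.105 to 0.128), and IL1B to TFPI, HLA-B and ALDH3A1 (0.0535 to 0.135). LIF was nearest to ARL14, RHOF and UNC13D (0.138 to 0.153). The low genes had no close match: CXCL5 was nearest to TNIP3, IL32 and TNFSF15 (0.394 to 0.483) and IL6 to AGR2, STX11 and KLK10 (0.380 to 0.386), with 0 genes within 0.25 of either. None of the 10 genes was among the 3 nearest of another.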

How the data were processed

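RNA of 9 libraries was column-purified, enriched for poly(A) and made into stranded libraries, per the labels' protocols. The authors deposited estimated counts and TPM values per gene and per transcript, and length-scaled and scaled estimated counts. Salmon and hg38 are named in the submitters' processing notes; their annotation is not given in the sources used here. Estimated gene counts were rounded. Genes were kept by edgeR's filterByExpr (minimum count 10, minimum total 15), normalised by TMM and tested with edgeR 4.0.16 (glmQLFit, glmQLFTest, R 4.3.3) in 1 fit of all 9 libraries, with Benjamini-Hochberg adjustment over 17910 genes. SEs come from the log2 change and its F statistic. Fold changes are of fitted values; intervals and floors of 3 counts cover the error of counting alone, as PCR copies carry no molecular identifiers. TPM was used as deposited. Gene positions and transcript types came from GENCODE 29 through unversioned identifiers, which matched 58183 of 62619. The edgeR, DESeq2 and limma fits were checked on simulated data.

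The 10 genes and the lists were chosen with earlier results of these data known. Named are all members, receptors and chromosome 4 neighbours, the largest rise and fall of each other list among called genes in MCF10Ca1a and in MCF10AT1 against MCF10A, and the 3 nearest genes per member (mean of at least 1 CPM, prior count 2); IL18 was added after its values were seen. Some results under this rule are not reported here. Alternatives were DESeq2 1.42.0 and its size factors, no filter, the other deposited counts, the replicate number as a block, limma 3.58.1 on log2(TPM + 1) and log2(TPM + 0.1), a fit of the 2 lines in question alone, and leaving out every library in turn.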

Additional observations from a re-analysis of the deposited data

How the results depend on the processing

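Of 600 values of a member under an alternative, 577 kept their direction and their side of the threshold, 8 lost the call and 8 turned sign; 10 gained a call, 3 of them with a turned sign (CXCL2 in MCF10Ca1a against MCF10AT1 under the 3 limma fits). The turned values belong to CXCL2 in MCF10Ca1a against MCF10AT1, which was 0.0250 (log2) with DESeq2's size factors and with its Wald test, 0.19 by limma on log2(TPM + 1) with and without the filter, 0.20 on log2(TPM + 0.1) and 0.0368 with coding transcripts only, and to IL1A in MCF10Ca1a against MCF10A, which was -0.00743 without the filter. IL1A ranged from -0.0164 (without MCF10A replicate 1) to 0.105 over libraries left out. Under the 3 limma fits 1 member fell in MCF10Ca1a against MCF10AT1, since CXCL1 lost its call there (adjusted p 0.0538, 0.0548 and 0.0757). CXCL5 in MCF10Ca1a against MCF10A also lost its call with the DESeq2 Wald test (-0.77, adjusted p = 0.0878) and with scaled counts (-0.85, adjusted p = 0.0751). The summed trio in MCF10Ca1a against MCF10A was 0.0774 without the filter and 0.12 to 0.17 over libraries left out. Genes called higher in MCF10AT1 against MCF10A numbered 5335, but 3447 by limma on log2(TPM + 1) and 3208 without the filter there. The share of calls that were higher went from 48.4% to 36.2% in that comparison and from 48.5% to 61.6% in MCF10Ca1a against MCF10AT1, and log2(TPM + 0.1) moved the median of all genes to -0.11, 0.21 and 0.10 in the 3 comparisons; the cause was not tested. On log2(TPM + 1) low genes shrank, as CXCL5 to -0.84 and IL6 to 1.58 in MCF10AT1 against MCF10A. Same-numbered libraries of different lines were no more alike than others: their 9 correlations ran from -0.06 to 0.05, and those of other pairs from -0.07 to 0.10. The labels do not say what the replicate number stands for, and a shared culture or day was not tested. With the number as a replicate block, 5268 genes were higher and 5578 lower in MCF10AT1 against MCF10A, 6748 and 7169 in MCF10Ca1a against MCF10AT1, and 6940 and 7457 in MCF10Ca1a against MCF10A, and no member changed its call. The fit of all 9 libraries shares 1 estimate of the spread per gene over the lines, although the spread differed between lines. For CXCL8 in MCF10Ca1a against MCF10AT1 its SE was 0.10, against 0.06 with those 2 lines alone. In MCF10AT1 against MCF10A it was 0.10, against 0.12 with those 2 lines alone. Depth limits CXCL5, IL6, CXCR1 and ACKR1.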
